A study of Mus musculus with 4 samples.

Results

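The Eph receptors, their ephrin ligands, and the semaphorin, Slit and netrin guidance systems were compared between the Rax::GFP+ and the Rax::GFP- fractions of mouse embryonic stem cell (ESC) aggregates. The group held 46 genes, chosen by name: the Eph receptors Epha1 to Epha5, Epha7 and Ephb1 to Ephb4, the ephrins Efna1 to Efna5 and Efnb1 to Efnb3, the secreted semaphorins Sema3a, Sema3c, Sema3d, Sema3e and Sema3f, the membrane-bound semaphorins Sema4d, Sema5a, Sema5b, Sema6a and Sema6d, 6 plexins, 2 neuropilins, Slit1 to Slit3, Robo1, Robo2, Ntn1, Dcc, Unc5b, Unc5c and Unc5d. Of these, 45 had at least 1 probe set annotated to them alone, 116 probe sets in all, out of 18194 genes and 45101 probe sets on the array. Ephb2 was not analysed here. The 46 genes were chosen with earlier results of these data known. Each gene was read by the probe set with the highest mean over the 4 arrays, and the other probe sets are given for every gene that passed and for part of the uncalled genes.

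The cells came from a Rax::GFP reporter ESC line, in which GFP marks cells that express Rax, a homeobox gene of the eye field and hypothalamus. They were cultured as SFEBq aggregates, that is, floating serum-free embryoid body-like aggregates formed by quick reaggregation, in a chemically defined medium free of growth factors. On day 4.5 the aggregates were pooled, dissociated and sorted by flow cytometry into Rax::GFP+ cells (2 arrays) and Rax::GFP- cells (2 arrays). Both groups were untreated and carried the same reporter, and only the sort set them apart.

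Ephs are receptor tyrosine kinases that bind ephrins on neighbouring cells. EphA receptors mainly bind the lipid-anchored ephrin-As, EphB receptors mainly bind the transmembrane ephrin-Bs, and signals run into both the receptor-bearing and the ligand-bearing cell. Class 3 semaphorins are secreted and signal through neuropilins and plexins, most membrane-bound semaphorins bind plexins directly, Slits act on Robo receptors, and netrin-1 acts on Dcc and Unc5 receptors. In the embryonic brain these systems guide axons, and Eph and ephrin contacts also keep neighbouring cell populations apart.

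The reporter gene matched the sort labels. Rax was at a log2 value of 10.70 and 10.86 in GFP+ against 8.58 and 8.88 in GFP- cells, a difference of -2.05 ± 0.13 (SE, limma adjusted p = 0.00785). Every difference below is GFP- minus GFP+ on the log2 scale, with its SE after the sign ± and 2 arrays a group. In the marker lists, 5 of 6 rostral neural genes (Rax itself among the 5) and 4 of 6 early neural genes were lower in GFP- cells. Of 7 measured caudal neural genes, 4 were higher there. GFP- cells also had higher values of 6 of 8 pluripotency genes, with mean log2 levels of 7.26 and 6.95 in GFP+ against 9.44 and 9.37 in GFP- cells, and of 5 of 8 endoderm genes, with means of 5.38 and 5.88 against 7.33 and 7.41. Moreover, 1 mesoderm gene of 5 measured (Eomes), 1 endothelial gene of 6 (Cldn5), and 2 of 6 neural crest genes (Ets1, Foxd3) were higher in GFP- cells and Snai2 was lower, and of 8 neuronal genes Neurod1 was higher and Tubb3 lower. The endothelial list stood at mean log2 levels of 3.998 to 4.39 on the 4 arrays, and 1 of its 6 genes reached a log2 value of 5 on 2 arrays. These marker levels differed between the same groups as every guidance gene below, and their part in the guidance differences was not tested. In such sorted bulk samples, fewer cells of a type and less RNA per cell cannot be told apart.

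Of the 45 measured guidance genes, 7 had higher levels in GFP- cells (Epha1, Epha2, Efna3, Sema3a, Sema3e, Slit3, Unc5b) and 6 had lower levels there (Efna5, Efnb2, Efnb3, Sema5a, Sema6d, Robo1) at an adjusted p of 0.05 by limma. The 13 genes were 28.9% of those measured, beside 8.02% of all genes on the array. Since the 46 genes were chosen with earlier results of these data known, that share is a description. Outside the group, 33 other guidance receptors and ligands, most but not all of the same families, gave 1 call (3.03%). By direction, 5.4% of all genes passed as higher in GFP- cells and 2.63% as higher in GFP+ cells. The median difference of the guidance genes was 0.02 and that of all genes 0.05 (log2, GFP- minus GFP+), whereas the median size of the difference regardless of sign was 0.34 for the guidance genes and 0.13 for all genes. In 34 of the 45 genes the arrays of the 2 groups did not overlap, beside 60.1% of all genes. Of the 45 genes, 40 reached a log2 value of 5 on at least 2 arrays. Ligands made up 9 of the 13 genes (4 higher and 5 lower in GFP- cells, of 22), and receptors made up 4 (3 higher and 1 lower, of 23 measured).

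**Figure D1:**
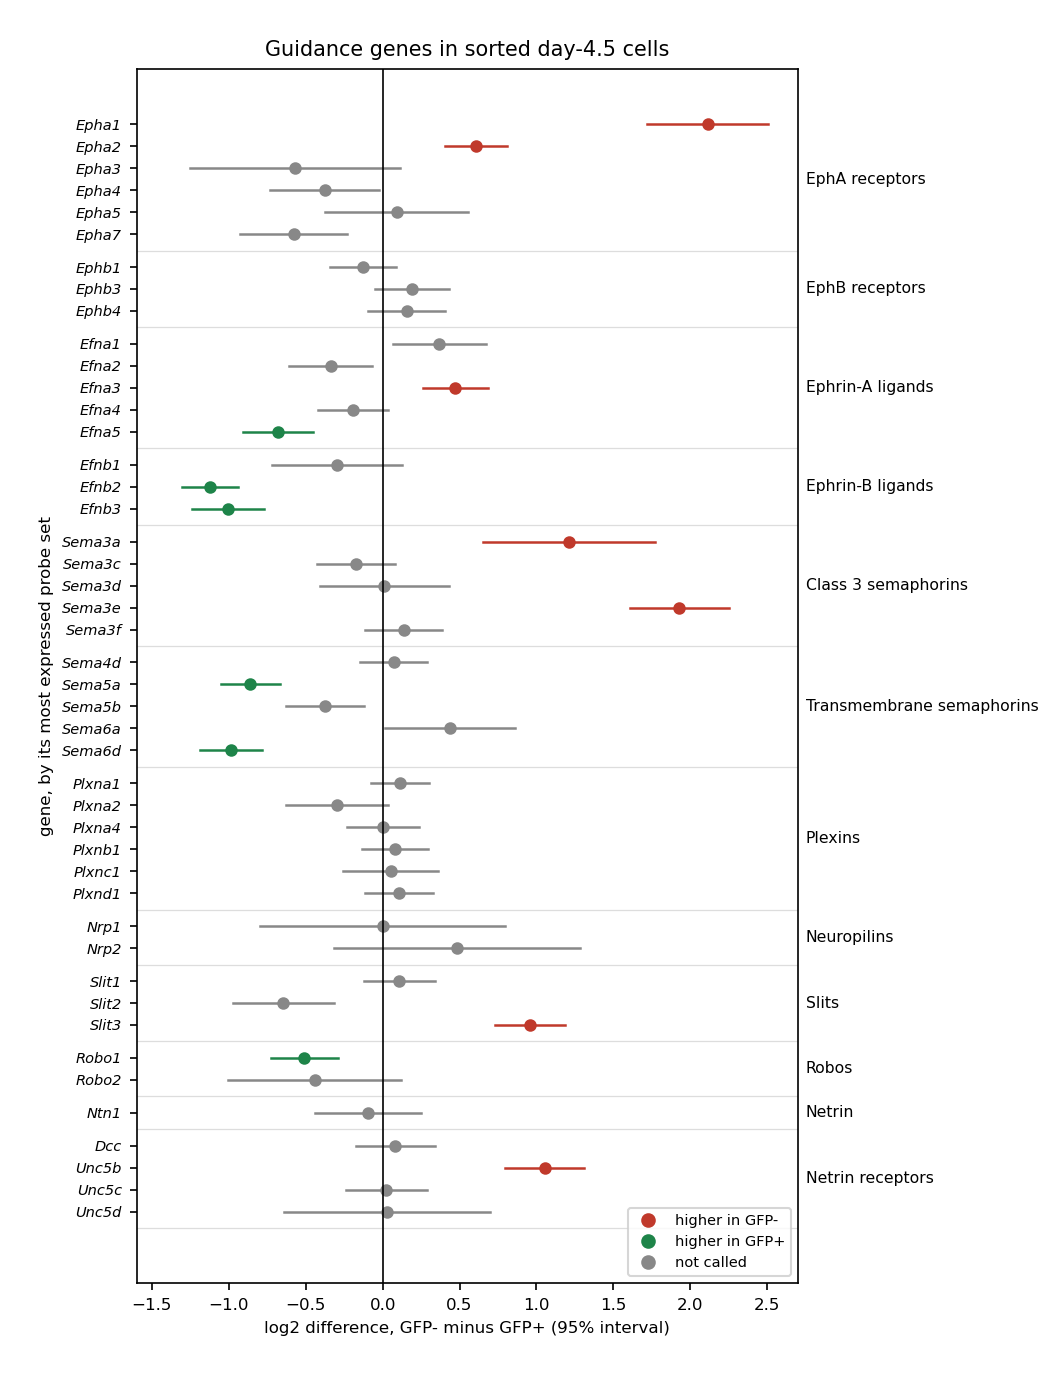
Log2 difference (x axis, GFP- minus GFP+) of the 45 measured guidance genes (y axis), grouped by role, with 95% intervals from limma over 2 arrays a group. Red and green points mark the 7 genes higher in GFP- and the 6 genes higher in GFP+ cells, and grey points did not pass; the differences span -1.12 (Efnb2) to 2.11 (Epha1).

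The number of passing genes fell when any one array was left out, which leaves 1 array in a group and fewer residual degrees of freedom. A lost call therefore does not show that a difference came from the array left out. Without either GFP- array, 0 guidance genes and 0 of all 45101 probe sets passed limma, while 19 guidance genes (without replicate 1) and 18 (without replicate 2) had an unadjusted p under 0.05, as had 7704 and 7697 of all probe sets. Without GFP+ replicate 1, 7 of the 13 passed (Epha1, Efnb2, Efnb3, Sema3e, Sema6d, Slit3, Unc5b). Without GFP+ replicate 2, 9 of the 13 passed, with Efna5 and Sema5a added to the same 7, and Slit2 passed as well. The 13 genes kept their direction without any one array.

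Among the Eph receptors, 2 of 6 EphA receptors were higher in GFP- cells. The 3 measured EphB receptors gave 0 calls by limma, and 0 of them had an unadjusted p under 0.05. Epha1, the founding member of the receptor family, had log2 values of 5.66 and 6.03 in GFP+ against 7.88 and 8.03 in GFP- cells. The GFP- arrays lay far above both GFP+ arrays, and the difference of 2.11 ± 0.15 (4.32-fold, limma adjusted p = 0.00881) was the largest of the 45 genes in either direction. It was carried by 1 of the 3 probe sets for Epha1: the dimmer ones differed by 0.13 and 0.30 and did not pass, and the mean over all 3 differed by 0.85.

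Epha2, a receptor known from epithelia and the early embryo, read 6.48 and 6.48 in GFP+ against 7.13 and 7.04 in GFP- cells. Neither GFP- array reached down to the GFP+ arrays, and the difference was 0.61 ± 0.08 (1.52-fold, limma adjusted p = 0.0245). The call was lost without GFP+ replicate 1 and without GFP+ replicate 2, while the difference stayed at 0.61 and 0.60.

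Epha7, a receptor of the embryonic forebrain and hindbrain, read 11.37 and 11.08 in GFP+ against 10.73 and 10.57 in GFP- cells. Its GFP- arrays were the lower, without overlap, but the difference of -0.58 ± 0.13 (95% interval -0.92 to -0.23) did not pass after adjustment (limma adjusted p = 0.075). Epha7 passed under 3 of 13 settings (adjusted p range 0.0169 to 0.304), among them the mean over its 4 probe sets, which differed by -0.29 (adjusted p = 0.0447). Epha4, which binds ephrins of both classes, differed by -0.38 (95% interval -0.73 to -0.02, limma adjusted p = 0.172) and pointed the same way at all 5 of its probe sets, none of which passed. Epha3 and Epha5 did not reach a log2 value of 5 on 2 arrays. Their differences were -0.57 (95% interval -1.25 to 0.11) and 0.09 (95% interval -0.37 to 0.56).

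EphB receptors, the partners of the ephrin-Bs, did not pass. Ephb1 read 9.75 and 9.87 in GFP+ against 9.70 and 9.67 in GFP- cells, groups that lay next to each other without overlap. The difference was -0.13 ± 0.08 (95% interval -0.34 to 0.09, limma adjusted p = 0.401). Ephb3 (0.19, 95% interval -0.05 to 0.43) and Ephb4 (0.16, 95% interval -0.09 to 0.41) leaned the other way, and neither passed.

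The promoters of the genes with the largest difference in each direction are shown for context, and no binding or methylation was measured at them. The first 2 lines belong to the genes that rose most in GFP- cells, Epha1 (chr6:42373219-42373518, minus strand) and Sema3e (chr5:14025026-14025325, plus strand), and the third to Efnb2 (chr8:8661193-8661492, minus strand), which fell most there. Efnb3 came next in that direction and is named only. Each sequence is RefSeq's on GRCm38.p6, from 250 bases before to 50 bases after the annotated start, written 5′ to 3′ along the gene, with CG dinucleotides in capitals.
Epha1: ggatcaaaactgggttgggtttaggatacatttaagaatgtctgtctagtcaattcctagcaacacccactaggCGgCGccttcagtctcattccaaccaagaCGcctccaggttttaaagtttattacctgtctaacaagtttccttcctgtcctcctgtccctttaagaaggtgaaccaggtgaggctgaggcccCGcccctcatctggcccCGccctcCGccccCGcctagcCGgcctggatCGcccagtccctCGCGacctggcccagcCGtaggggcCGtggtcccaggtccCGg
Sema3e: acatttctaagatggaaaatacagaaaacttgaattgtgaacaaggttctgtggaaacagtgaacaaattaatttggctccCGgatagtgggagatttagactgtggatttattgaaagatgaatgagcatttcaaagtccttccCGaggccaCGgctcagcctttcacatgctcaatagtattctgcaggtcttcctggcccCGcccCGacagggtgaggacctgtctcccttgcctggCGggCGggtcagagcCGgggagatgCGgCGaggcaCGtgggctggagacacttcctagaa
Efnb2: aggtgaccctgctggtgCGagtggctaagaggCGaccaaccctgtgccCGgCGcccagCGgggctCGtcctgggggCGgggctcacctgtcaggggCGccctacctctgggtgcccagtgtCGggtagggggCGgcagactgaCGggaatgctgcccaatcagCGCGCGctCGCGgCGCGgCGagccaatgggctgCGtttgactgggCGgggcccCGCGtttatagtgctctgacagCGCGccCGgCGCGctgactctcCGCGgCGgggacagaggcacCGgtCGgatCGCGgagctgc
The Efnb2 promoter held 35 CG dinucleotides, the Epha1 promoter 14 and the Sema3e promoter 11. The median was 20 over the 44 promoters of the 36 guidance genes that matched the RefSeq table, and 7 over all 32851 promoters.

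The search of these windows covered 3 short motifs on both strands. The letters TAATTA, the core bound by paired-type homeodomain factors such as Rax, were in a promoter of 2 of 36 guidance genes (Epha5 and Efna1, 5.56%) and of 6.12% of all genes. The letters ATGCAAA, a part of the octamer bound by POU factors, were in 0 of 36 and in 5.24% of all genes. CTTTGAT, the Tcf/Lef core, was in 1 of 36 (Nrp2, 2.78%) and in 4.29% of all genes. No motif holds another, and 0 of the 12 guidance genes that both passed the test and had a promoter in the table held any of them, so the windows printed above hold none.

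Of the 8 ephrins, 3 passed as higher in GFP+ cells (Efnb2, Efnb3, Efna5) and 1 as higher in GFP- cells (Efna3). Efnb2, a transmembrane ligand of EphB receptors and of Epha4 that also acts in vessel formation, had log2 values of 13.09 and 13.08 in GFP+ against 11.97 and 11.96 in GFP- cells. Replicates differed in the second decimal while the groups were more than 1 log2 unit apart, a difference of -1.12 ± 0.07 (2.18-fold, limma adjusted p = 0.00761). A second Efnb2 probe set gave -1.197 (limma adjusted p = 0.00804). The remaining ones differed by -0.63 and -0.66 and did not pass (limma adjusted p = 0.114 and 0.0754), and the mean over all 4 differed by -0.90.

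Efnb3, a ligand at the midline of the nervous system, read 9.51 and 9.34 in GFP+ against 8.42 and 8.43 in GFP- cells. Its groups did not overlap either, and it differed by -1.01 ± 0.09 (2.01-fold, limma adjusted p = 0.0128) at its 1 probe set. The third ephrin-B, Efnb1, read 8.14 and 8.37 in GFP+ against 8.14 and 7.77 in GFP- cells. The upper GFP- array nearly met the lower GFP+ array, and the difference of -0.30 ± 0.16 (95% interval -0.72 to 0.12, limma adjusted p = 0.318) did not pass.

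Among the ephrin-As, Efna5 and Efna3 moved in opposite directions. Efna5, a repulsive cue of the visual map, read 11.06 and 10.91 in GFP+ against 10.29 and 10.32 in GFP- cells. Both GFP- arrays lay below both GFP+ arrays, by -0.68 ± 0.09 (1.60-fold, limma adjusted p = 0.0254), while its dimmer probe set differed by -0.36 and did not pass (limma adjusted p = 0.0967). Without GFP+ replicate 1 the call was lost, at a difference of -0.60.

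Efna3 read 7.11 and 7.17 in GFP+ against 7.66 and 7.56 in GFP- cells, higher on both GFP- arrays. The difference of 0.47 ± 0.08 (1.39-fold, limma adjusted p = 0.044) was the smallest of the 13, and the dimmer probe set (0.23, limma adjusted p = 0.17) did not pass. Leaving out GFP+ replicate 1 (difference 0.44) or GFP+ replicate 2 (difference 0.50) lost the call.

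Efna2, another lipid-anchored ephrin, read 9.78 and 9.55 in GFP+ against 9.32 and 9.33 in GFP- cells. Here too the groups were separate, but the difference of -0.34 ± 0.10 (95% interval -0.61 to -0.07) did not pass (limma adjusted p = 0.128). Efna1 differed by 0.37 (95% interval 0.07 to 0.67) and Efna4 by -0.19 (95% interval -0.42 to 0.03), and neither passed.

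Class 3 semaphorins that passed were higher in GFP- cells (2 of 5), and membrane-bound semaphorins that passed were higher in GFP+ cells (2 of 5). Sema3e, a secreted ligand that binds plexin-D1 without a neuropilin, had log2 values of 4.65 and 4.94 in GFP+ against 6.76 and 6.70 in GFP- cells. It was dim on both GFP+ arrays and higher on both GFP- arrays, by 1.93 ± 0.12 (3.81-fold, limma adjusted p = 0.00774), and a second of its 4 probe sets differed by 1.41 (limma adjusted p = 0.00638). The others differed by 0.996 and 0.46 and did not pass (limma adjusted p = 0.0505 and 0.0599), and averaged over the 4 Sema3e differed by 1.1995.

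Sema3a, the prototype repellent of axons through neuropilin-1, read 7.78 and 7.26 in GFP+ against 8.87 and 8.59 in GFP- cells. The GFP+ replicates stood farther apart than those of the other 12 passing genes, yet both lay below the GFP- arrays, and the difference was 1.21 ± 0.21 (2.32-fold, limma adjusted p = 0.0456). A second probe set gave 1.42 (limma adjusted p = 0.0269), and the third gave 0.64 and did not pass (limma adjusted p = 0.18). The call at the brighter probe set was lost without GFP+ replicate 1 (difference 1.47) and without GFP+ replicate 2 (difference 0.95).

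Sema3f, a ligand of neuropilin-2, read 9.23 and 9.37 in GFP+ against 9.50 and 9.37 in GFP- cells. The lower GFP- array matched the upper GFP+ array to the second decimal, and the difference of 0.14 ± 0.09 (95% interval -0.11 to 0.39, limma adjusted p = 0.428) did not pass. Its dimmest probe set was called higher in GFP- cells (0.64, limma adjusted p = 0.0378), and the middle one gave 0.55 (limma adjusted p = 0.0585). The mean over the 3 differed by 0.44 and passed (limma adjusted p = 0.0215, range 0.0215 to 0.807 over all alternatives), so the call, though not the sign, depended on the probe set. The brightest one carries the suffix by which Affymetrix marks probes shared with other transcripts. Sema3c (-0.17, 95% interval -0.42 to 0.08) did not pass, and Sema3d (0.01, 95% interval -0.41 to 0.43) did not reach a log2 value of 5 on 2 arrays.

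Sema6d, a membrane-bound ligand of plexin-A1, read 9.93 and 10.02 in GFP+ against 8.98 and 9.005 in GFP- cells. Its replicates were close and its groups apart, with a difference of -0.99 ± 0.08 (1.98-fold, limma adjusted p = 0.0104). A second probe set gave -0.60 (limma adjusted p = 0.0245), the others -0.21 and 0.03, and their mean over all 4 was -0.44.

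Sema5a, which carries thrombospondin repeats, read 8.91 and 8.86 in GFP+ against 8.04 and 8.01 in GFP- cells. It was lower on both GFP- arrays, by -0.86 ± 0.07 (1.81-fold, limma adjusted p = 0.0119), and by -0.57 at a second probe set (limma adjusted p = 0.0388). Both remaining probe sets were dim, differed by 0.03 and 0.21 and brought the mean over all 4 to -0.30. Without GFP+ replicate 1 the call was lost, at a difference of -0.84.

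Sema4d, a ligand of plexin-B1, read 8.54 and 8.45 in GFP+ against 8.52 and 8.61 in GFP- cells. The groups overlapped, and the difference was 0.07 ± 0.08 (95% interval -0.14 to 0.29, limma adjusted p = 0.634). Sema5b (-0.38, 95% interval -0.63 to -0.12) and Sema6a (0.44, 95% interval 0.01 to 0.86) did not pass, nor did a dimmer Sema6a probe set at 0.61 (limma adjusted p = 0.13).

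**Figure D2:**
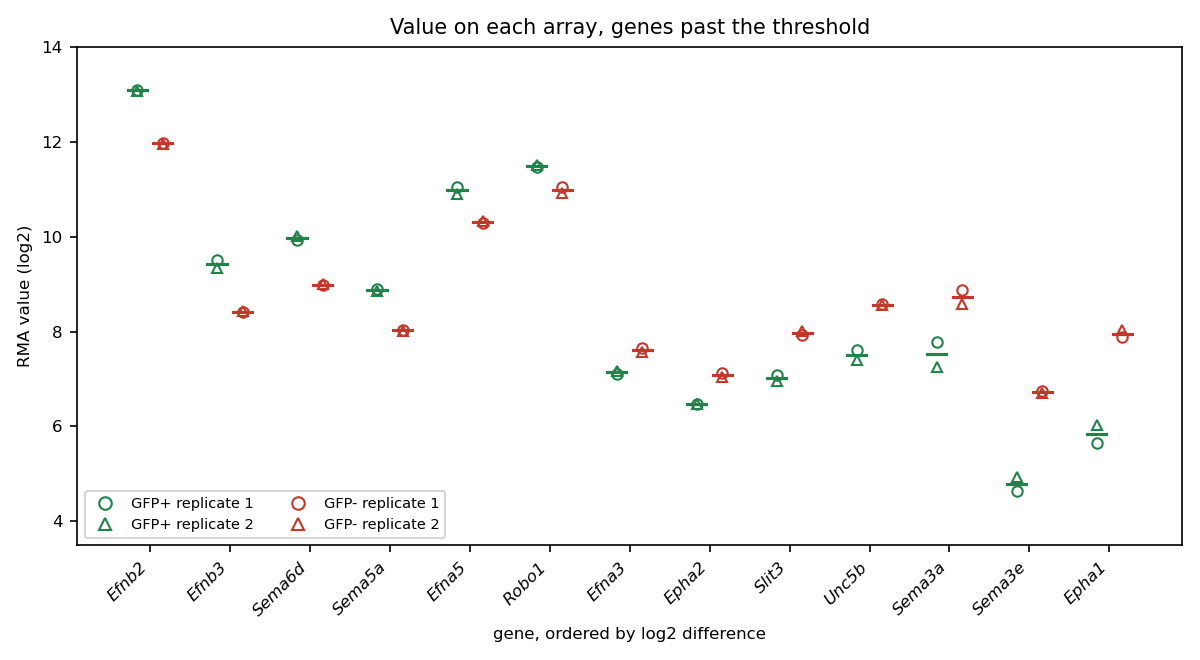
RMA value (y axis, log2) on each of the 4 arrays for the 13 guidance genes past the threshold (x axis, ordered by difference), with GFP+ arrays in green, GFP- arrays in red, circles for replicate 1, triangles for replicate 2 and bars for group means. No gene's groups overlap; Sema3a has the widest gap between GFP+ replicates (7.78 and 7.26), and levels of different genes come from different probe sets and are not comparable.

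Of the 8 semaphorin receptors, 0 passed limma and 0 had an unadjusted p under 0.05 at the brightest probe set. For the 6 plexins the differences at the brightest probe sets lay between -0.30 and 0.11. Dimmer probe sets reached -0.49 for Plxna2 (limma adjusted p = 0.0542) and 0.42 for Plxnc1 (limma adjusted p = 0.122), and 0 plexin probe sets passed. Plxnb1, the Sema4d receptor, read 9.12 and 9.24 in GFP+ against 9.25 and 9.26 in GFP- cells, side by side, with a difference of 0.08 ± 0.08 (95% interval -0.14 to 0.29, limma adjusted p = 0.603). Plxnd1, the Sema3e receptor, differed by 0.11 (95% interval -0.11 to 0.33), and Plxna1, the Sema6d receptor, by 0.11 (95% interval -0.08 to 0.30).

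Neuropilins, the co-receptors of class 3 semaphorins, were set apart by the spread between replicates. Nrp2 read 6.93 and 6.27 in GFP+ against 7.38 and 6.79 in GFP- cells. The groups overlapped, and the difference of 0.48 ± 0.30 had a 95% interval of -0.32 to 1.28 (limma adjusted p = 0.388), with 0.18 as the mean over its 4 probe sets. Nrp1, the Sema3a co-receptor, read 6.79 and 6.27 in GFP+ against 6.89 and 6.18 in GFP- cells. The first replicate was the higher in both groups, and the 95% interval of -0.80 to 0.80 left room for a change of more than 0.5 in either direction. At 7 of the 8 neuropilin probe sets replicate 1 was above replicate 2 in both groups, which held for 41 of 116 guidance probe sets (35.3%) and for 22.6% of all probe sets.

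In the Slit system 1 of 3 ligands and 1 of 2 receptors passed, in opposite directions. Slit3, a secreted Robo ligand, read 7.09 and 6.95 in GFP+ against 7.94 and 8.01 in GFP- cells. It was higher on both GFP- arrays, by 0.96 ± 0.09 (1.94-fold, limma adjusted p = 0.0134), at its 1 probe set. Slit2 leaned the opposite way, with 8.22 and 7.93 in GFP+ against 7.47 and 7.39 in GFP- cells. Its groups did not overlap, and its difference of -0.64 ± 0.12 (95% interval -0.97 to -0.32) fell just short of the threshold (limma adjusted p = 0.0548); it passed without GFP+ replicate 2 (adjusted p = 0.0384, range 0.0163 to 0.253 over all alternatives). Its other probe sets differed by -1.11 (limma adjusted p = 0.0621) and -0.03, and the mean over the 3 by -0.59 (adjusted p = 0.0334). Slit1 differed by 0.11 (95% interval -0.12 to 0.34).

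Robo1, the Slit receptor of many axon tracts, read 11.46 and 11.51 in GFP+ against 11.04 and 10.92 in GFP- cells. Both GFP- arrays were the lower, by -0.51 ± 0.08 (1.42-fold, limma adjusted p = 0.0401). Its dimmer probe sets differed by -0.55 and -0.11 and did not pass (limma adjusted p = 0.0507 and 0.488). The Robo1 call was lost without GFP+ replicate 1 (difference -0.54) and without GFP+ replicate 2 (difference -0.48). Robo2 read 3.81 and 3.36 in GFP+ against 2.94 and 3.34 in GFP- cells, did not reach a log2 value of 5 on any array, and differed by -0.44 ± 0.21 (95% interval -1.01 to 0.12, limma adjusted p = 0.275).

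In the netrin system the ligand did not pass and 1 of 4 receptors did. Unc5b, a repulsive netrin receptor, read 7.62 and 7.41 in GFP+ against 8.58 and 8.55 in GFP- cells. It was higher on both GFP- arrays, by 1.05 ± 0.10 (2.07-fold, limma adjusted p = 0.0142), and by the same 1.05 at a second probe set (limma adjusted p = 0.0138). Ntn1 read 10.95 and 10.78 in GFP+ against 10.91 and 10.63 in GFP- cells. The arrays of the groups interleaved, and the difference of -0.10 ± 0.13 (95% interval -0.44 to 0.25, limma adjusted p = 0.70) did not pass.

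Dcc, the attractive netrin receptor, read 6.44 and 6.64 in GFP+ against 6.61 and 6.64 in GFP- cells. These overlapped, with a difference of 0.08 ± 0.10 (95% interval -0.17 to 0.34, limma adjusted p = 0.649), but its dimmer probe sets differed by -0.64 and -0.82, against the sign of the brightest, without passing. Over the mean of its 3 probe sets Dcc was lower in GFP- cells (-0.46, limma adjusted p = 0.0273, range 0.0273 to 0.942 over all alternatives), so its sign depended on how the probe sets were read. Unc5c (0.02, 95% interval -0.24 to 0.29) and Unc5d (0.03, 95% interval -0.64 to 0.70) did not pass, and Unc5d was dim.

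Across all 116 probe sets of the 45 genes, 11 were higher in GFP- and 9 were higher in GFP+ cells, or 17.2%, beside 7.47% of all 45101 probe sets. Of the 35 genes with several probe sets, 24 had 1 sign throughout. The 10 passing genes with several probe sets had 21 dimmer ones, of which 6 passed and 3 had the opposite sign to the brightest (2 of Sema5a and 1 of Sema6d), none of these past the threshold. Epha2, Efnb3 and Slit3 had 1 probe set each, so these calls had no second reading.

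**Figure D3:**
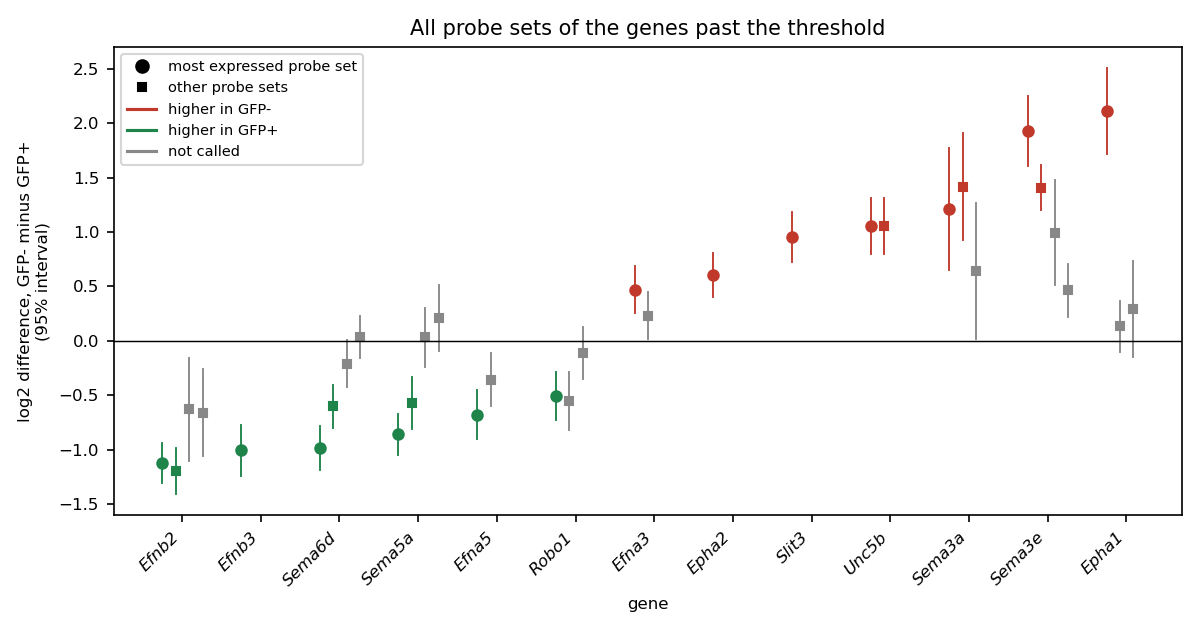
Log2 difference (y axis, GFP- minus GFP+, with 95% intervals) at every probe set of the 13 genes past the threshold (x axis), with circles for the brightest probe set of a gene, squares for its others, red for higher in GFP-, green for higher in GFP+ and grey for not passed. Sema3a, Sema3e, Sema5a, Sema6d, Unc5b and Efnb2 pass at 2 probe sets each, and Epha1 passes at 1 of 3.

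To look for complementary receptors and ligands, the differences of 60 pairs were set side by side, as a description without a test. Ephrins, Slits and Ntn1 were paired with every measured receptor of their class (ephrin-Bs also with Epha4), and most semaphorins with named receptors only. Sema5a, which passed, and Sema3d and Sema5b, which did not, were in no pair. How strongly the members of a pair bind was not considered. Both partners passed in 5 pairs. In 3 of these the partners went opposite ways. Efna5 was higher in GFP+ cells (-0.68), while the EphA receptors Epha1 (2.11) and Epha2 (0.61) were higher in GFP- cells. Robo1 was higher in GFP+ cells (-0.51), while Slit3 was higher in GFP- cells (0.96). In the other 2, Efna3 (0.47) was higher in the same GFP- cells as Epha1 and Epha2. These 5 pairs share 6 genes and are not separate observations, and Epha1 passed at only 1 of its 3 probe sets. Other partners did not pass. Among them Epha3 (-0.57), Epha4 (-0.38) and Epha7 (-0.58) leaned the same way as Efna5, and Epha5 (0.09) the opposite way. Slit2 (-0.64) leaned the same way as Robo1, and Slit1 (0.11) the opposite way. Without GFP+ replicate 1, 0 pairs had both partners past the threshold, and without GFP+ replicate 2 only Efna5 with Epha1 did.

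In 29 pairs 1 partner passed, and in 26 neither did. Of the 12 ephrin-B pairs, 8 had the ligand alone past the threshold, since Efnb2 and Efnb3 were lower in GFP- cells while Ephb1, Ephb3, Ephb4 and Epha4 did not pass. Sema3e with Plxnd1, Sema3a with Nrp1, and Sema6d with Plxna1 were likewise ligand-only pairs, and Ntn1 with Unc5b was a receptor-only pair. Opposite signs, called or not, occurred in 33 of the 60 pairs. That count includes very small differences, such as Nrp1 (-0.0008) beside Sema3a, and all 4 Ntn1 pairs, in which Ntn1 differed by -0.095. It was not set against other pairs, so it does not show complementary expression.

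**Figure D4:**
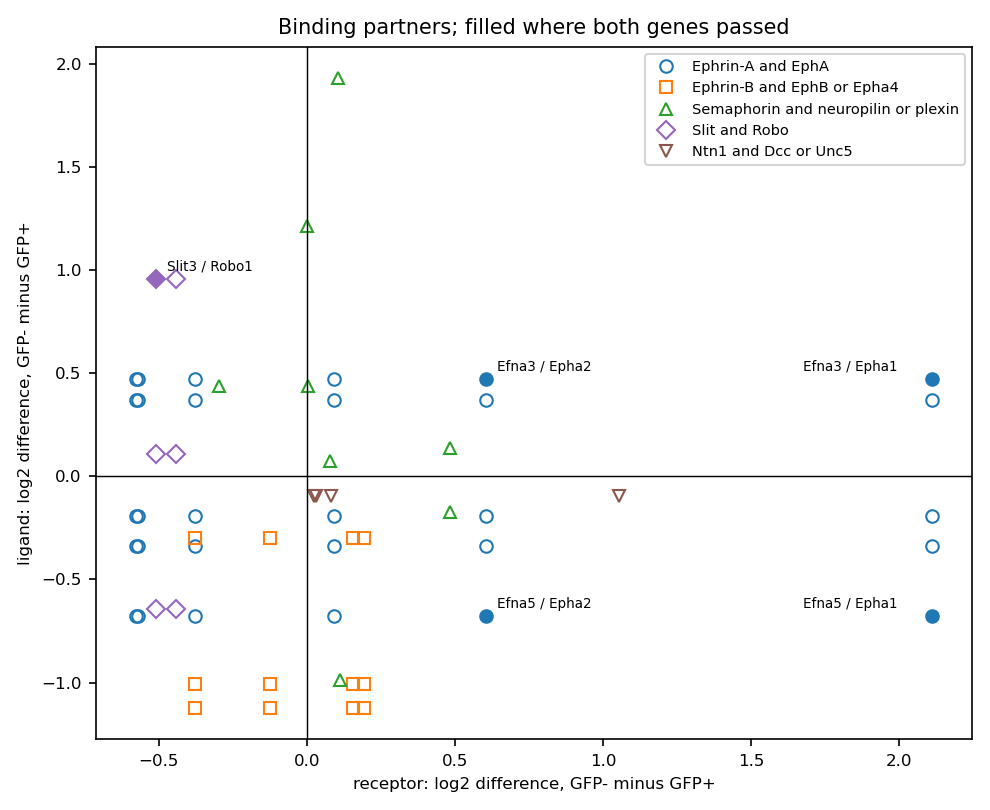
Log2 difference of the ligand (y axis) against that of the receptor (x axis), both GFP- minus GFP+, for 60 ligand and receptor pairs. Ephrin-A, ephrin-B, Slit and netrin pairs each have their own marker and all semaphorin pairs share another, filled where both genes passed. The 3 filled markers at opposite signs are Efna5 with Epha1, Efna5 with Epha2, and Slit3 with Robo1; the 2 filled markers in the upper right are Efna3 with Epha1 and Epha2. Points in a row or column share a gene.

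Related genes outside the group were counted the same way, beside 8.02% of all genes. Of 33 other receptors and ligands, 1 passed limma (3.03%). Most of the 33 belong to these families, but Flrt1, Flrt2, Flrt3, Rgma, Rgmb, Draxin and Dscam do not. The 1 gene, Flrt2, a membrane ligand of Unc5 receptors, read 7.56 and 7.56 in GFP+ against 6.59 and 6.63 in GFP- cells (-0.95 ± 0.07, limma adjusted p = 0.00966). Of 33 measured intracellular effectors, 2 passed (6.06%) and both were lower in GFP- cells, namely Dpysl4 (-1.18 ± 0.10, limma adjusted p = 0.0127) and Dpysl2 (-0.43 ± 0.07, limma adjusted p = 0.042). Both encode collapsin response mediator proteins, and Dpysl2 acts downstream of Sema3a.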

How the data were processed

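Rax::GFP+ and Rax::GFP- cells were each measured on 2 Affymetrix mouse expression arrays, described in the study's methods as biological duplicates from pooled aggregates. The p-values therefore rest on 2 samples a group. For them and for the SE, limma combined each probe set's spread between these samples with the spread typical of all probe sets. Neither shows the spread of 1 gene's own arrays alone. The values deposited by the authors are log2 values from RMA, 1 for each probe set on each array, and R 2.13.0 is named in the submitters' processing notes. RMA gives all arrays a like distribution, which hides differences in total RNA. The lowest value was 2.20 and the highest 15.1, and the array medians were 5.89 and 5.88 (GFP+) and 5.84 and 5.86 (GFP-). The number of arrays limits the precision.

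The fit of 45101 probe sets used limma 3.58.1 under R 4.3.3 (lmFit and eBayes, 2 groups, no filter, 2 residual and 2.52 prior degrees of freedom), with Benjamini-Hochberg adjustment over all probe sets at 0.05 and 95% intervals on the combined 4.52 degrees of freedom. The 64 control probe sets stayed in, and 0 passed. An exact permutation of 2 against 2 arrays cannot go below p = 0.333 and was not used. By the platform annotation 34958 probe sets had 1 gene, 932 had several and 9211 were unnamed here, and only the first were used. All 45 member identifiers were in the GRCm38.p6 gene table, with 0 symbols changed. The fit was tested on simulated data.

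The members, lists, pairs and tests were chosen with earlier results of these data known. Named with all array values were the members past the threshold and, in each role, the brightest member that was not; partners and members with a passing dimmer probe set were named more briefly. Alternatives were a replicate block, Storey's q-value, a filter on dim probe sets (a log2 value of 5 on 2 arrays), median centring, quantile normalization, an intensity trend, array weights, no control probe sets, averaging a gene's probe sets, and each array left out. Whether equal replicate numbers mark a shared experiment is not given in the sources used here, and the deviations of equally numbered arrays correlated at -0.05. No sample column was left unused.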

Additional observations from a re-analysis of the deposited data

How the results depend on the processing

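The differences of the 13 genes kept their direction under every alternative tried, and all 13 passed with Storey's q-value, the filter on dim probe sets, median centring, quantile normalization, an intensity trend, array weights, no control probe sets and averaging a gene's probe sets. These gave 13 to 18 passing members, and Slit2, Epha7, Efna2, Sema3f, Sema6a and Dcc were among those added. With the replicate number as a block, 0 members (0 in either direction), 0 guidance probe sets and 0 pairs in opposite or the same direction passed limma, as did 0 of all 45101 probe sets, although 22 members and 11019 probe sets had an unadjusted p under 0.05. Rax then differed by -2.05 (adjusted p = 0.0567). The block leaves fewer residual degrees of freedom. The intensity trend gave 31 guidance probe sets, 6 pairs in opposite directions and 5 in the same direction. Same-direction pairs numbered 4 with Storey's q-value and 4 with averaged probe sets.

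With 1 array left out, the lone array was assumed to vary like the other group. Passing members then ranged from 0 to 10, those higher in GFP- cells from 0 to 4, those higher in GFP+ cells from 0 to 6, guidance probe sets from 0 to 16, opposite pairs from 0 to 1 and same-direction pairs from 0 to 0. Rax ranged from -2.20 to -1.90. Among uncalled genes, Dcc ranged from -0.018 to 0.18 and Ntn1 from -0.23 to 0.045 with 1 array left out, and Dcc was -0.46 by the mean of its probe sets. The cause of these reversals was not tested. Of the named genes, the neuropilin Nrp2 had the largest SE (0.30). With the replicate number as a block, Nrp2 differed by the same 0.48 with an SE of 0.07 and did not pass (limma adjusted p = 0.108).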
